A study of Homo sapiens with 3 samples.

Results

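RBCK1 (HOIL-1L) was depleted in Caki-1 cells, an established human line of clear cell renal cell carcinoma with wild-type p53, with 2 siRNAs of different sequence, and the libraries of the 2 siRNAs are compared here with each other. Cells were transfected with si-RBCK1 #1, si-RBCK1 #2 or the non-targeting si-Control at 10 nmol/L, and total RNA was taken 48 h later, depleted of ribosomal RNA and sequenced with a directional kit. Each condition has 1 library, so 2 of the 3 libraries of the series enter the comparison and si-Control is given only as a reference level. There is no replicate check: a difference between the libraries can come from the siRNA, from the dish or from the library, and these cannot be told apart.

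A gene was compared when its mean over the 3 libraries was at least 1 RPKM (reads scaled to gene length and library size), which kept 12403 of 44591 genes, 10775 of them protein-coding. The measure is the log2 ratio of #1 to #2 after adding 1 RPKM to each value, so positive values mean higher with #1. The added 1 RPKM makes the ratios of low genes smaller than the plain ratios. The gene just inside the limit was KRT18P12, at 0.770 RPKM with #1 and 1.10 with #2, and the gene just outside was ZNF619, with 0.821 and 0.980 RPKM. The libraries held 40442939 reads for #1, 36344428 for #2 and 36926834 for si-Control, as recovered from the steps in the RPKM values. Intervals in brackets are exact Clopper-Pearson 95% intervals of the log2 ratio of reads over library totals, without the added 1 RPKM, so a log2 value of a low gene can lie outside its interval. They cover counting error only.

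RBCK1 encodes a RING-between-RING ubiquitin ligase. With RNF31 (HOIP) and SHARPIN it forms LUBAC, the complex that builds linear ubiquitin chains and carries signals from TNF and IL-1 receptors to NF-kB. An siRNA acts through its guide strand, which pairs along its whole length with the intended mRNA. Bases 2 to 8 of the guide, the seed, can also pair with 3′ UTRs of other mRNAs in the way of a microRNA. For this reason, 2 siRNAs of unrelated sequence against 1 gene share the target and not the seed.

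The guides below are the reverse complements of the study's listed target sequences, from 5′ to 3′, with the seed in capitals. That the sequenced libraries received these oligos was taken from the study's list and not tested, and every count of seed words and near matches below rests on it.

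si-RBCK1 #1 guide: uUGUUGAUgaaggugcacc

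si-RBCK1 #2 guide: uAGAAAUCgcugguaaucc

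Both target sites lie in the coding sequence of the longest RBCK1 transcript in GENCODE 29, which has 2774 bases with coding bases 706 to 2238. The site of #1 covers bases 1307 to 1325 (GRCh38 chr20:419577-419595, plus strand), and the site of #2 covers bases 1749 to 1767 (chr20:427327-427345).

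RBCK1 itself stood at 33.3 RPKM with si-Control, 9.97 RPKM with #1 and 12.3 RPKM with #2. This left 29.9% of the si-Control level with #1 (28.3 to 31.6%) and 36.8% with #2 (34.9 to 38.8%). The log2 ratio of #1 to #2 was -0.27 (-0.39 to -0.20), so RBCK1 was somewhat lower with #1 and both libraries were far below si-Control. The partners of RBCK1 were close between the siRNAs. RNF31 stood at 6.80 RPKM with #1 and 7.11 with #2, and SHARPIN at 18.1 and 17.0 RPKM. OTULIN, a deubiquitinase that cuts linear chains, was lower with #1, at 5.37 against 7.11 RPKM (log2 -0.35). TNFAIP3 (A20), an inhibitor of NF-kB signalling that is itself an NF-kB target, was higher with #1, at 6.55 against 3.72 RPKM (log2 0.68).

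Of 12 renal epithelial and carcinoma markers, 7 reached 1 RPKM in each library. PAX8 stood at 124, 82.5 and 107 RPKM and VIM at 664, 1512 and 1392 RPKM (si-Control, #1, #2), whereas PAX2 and CA9 reached at most 0.0642 and 0.0636 RPKM in any library. None of 6 leukocyte and none of 5 endothelial markers reached 1 RPKM in any library, with summed levels of 0.132, 0.423 and 0.192 RPKM for leukocytes and 0.0863, 0.0729 and 0.0751 RPKM for endothelium. Of 5 fibroblast markers COL1A1 alone reached 1 RPKM, and the summed levels were 4.94, 3.52 and 4.60 RPKM.

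Across all genes compared the libraries were alike. The median log2 ratio was -0.01 with an SD of 0.33 over genes, and 93.8% of genes lay within 1.5-fold. Of 12403 genes, 171 (1.38%) were at least 2-fold apart, 82 higher with #1 (0.661%) and 89 higher with #2 (0.718%). Most of these were short or noncoding RNAs. Among 10775 protein-coding genes 39 (0.362%) were at least 2-fold apart, 12 higher with #1 (0.111%) and 27 higher with #2 (0.251%). Among 1628 genes of other types 132 (8.11%) were, 70 higher with #1 (4.3%) and 62 higher with #2 (3.81%). The reads behind these groups differ: the median of the larger library was 1465 and 1077 reads for the protein-coding genes higher with #1 and with #2, against 18 and 20 reads for the other types. The whole 95% counting interval, which has no added RPKM, lay past 2-fold in 51 protein-coding genes and 50 of other types. Of these 51, 33 were among the 39 and 18 were not, and the interval of 6 of the 39 reached inside 2-fold (HBEGF, LY96, ATP6V0D1, CCL20, MT1A and C4orf48).

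**Figure D1:**
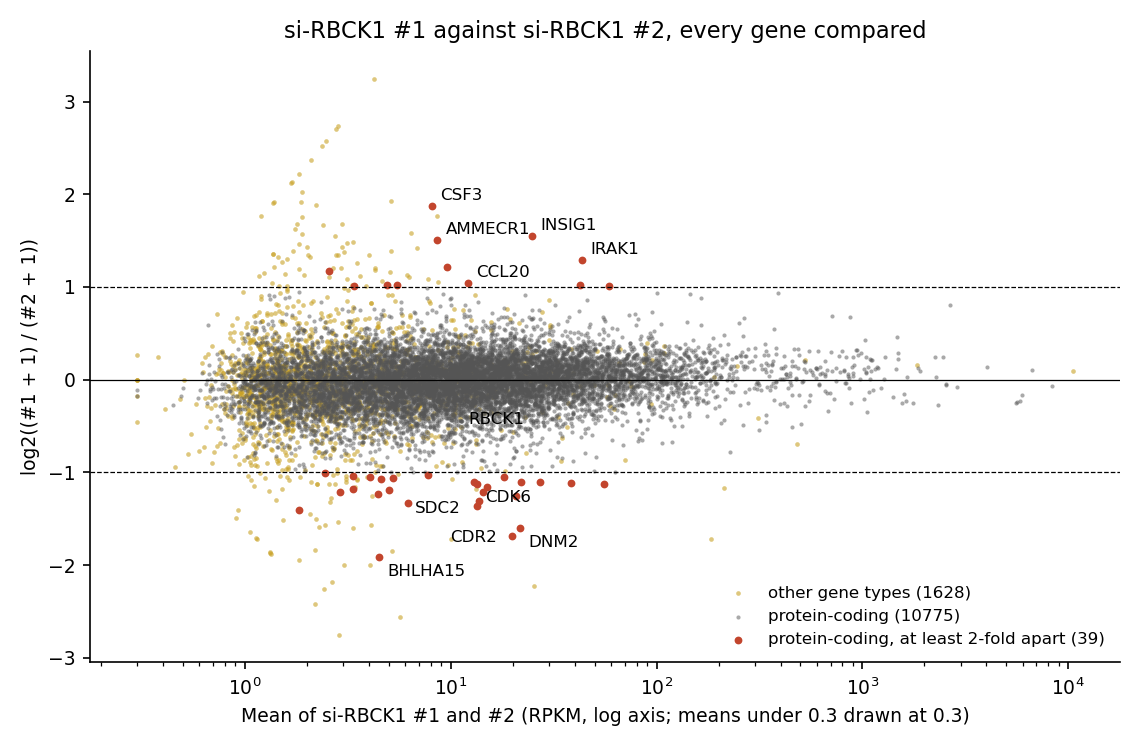
Each dot is 1 gene, with the mean RPKM of the 2 si-RBCK1 libraries on a log axis against the log2 ratio of #1 to #2, and dashed lines mark 2-fold. The 39 protein-coding genes at least 2-fold apart are in red, and most of the remaining genes beyond the lines are other gene types of low level. Means under 0.3 RPKM are drawn at 0.3.

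The protein-coding genes farthest apart toward #1 were led by a cytokine and a regulator of sterol synthesis. CSF3 (G-CSF, the growth factor of neutrophils) had 1.99 RPKM with si-Control, 13.3 with #1 and 2.89 with #2, a log2 ratio of 1.87 (1.97 to 2.43). INSIG1, which holds the SREBP activator SCAP in the endoplasmic reticulum, had 8.39, 37.5 and 12.2 RPKM, a log2 ratio of 1.55 (1.54 to 1.71). In these genes #1 stood above si-Control and #2 was nearer to it.

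IRAK1, a kinase of IL-1 receptor and Toll-like receptor signalling, had 35.3 RPKM with si-Control, 61.8 with #1 and 24.6 with #2 (log2 1.29, 1.27 to 1.39). AMMECR1 had 13.2, 13.2 and 4.01 RPKM (log2 1.51, 1.62 to 1.84), so its difference lay on the side of #2. The Polycomb group gene SCML2 showed the same order, with 3.39, 3.95 and 1.20 RPKM (log2 1.17), as did NIPAL4, of a family of magnesium transporters, with 10.9, 13.7 and 5.35 RPKM (log2 1.21).

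CCL20, a chemokine that attracts lymphocytes and dendritic cells, had 20.5 RPKM with si-Control, 16.7 with #1 and 7.58 with #2 (log2 1.04, 0.91 to 1.36). HBEGF, a ligand of the EGF receptor, had 54.4, 78.9 and 38.8 RPKM (log2 1.00, 0.96 to 1.08). PTGES, the inducible prostaglandin E synthase, had 5.33, 6.88 and 2.89 RPKM (log2 1.02). LY96 (MD-2, the partner of TLR4) had 2.53, 4.85 and 1.90 RPKM (log2 1.01), and its interval of 0.84 to 1.89 was wide at 122 and 43 reads. The nuclear body protein SP140 had 4.12, 7.67 and 3.28 RPKM (log2 1.02), and ATP6V0D1, a subunit of the proton pump of lysosomes, had 41.5, 57.1 and 27.7 RPKM (log2 1.02).

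SLC35D2 (10.5 against 4.78 RPKM), the receptor gene IL7R (2.71 against 0.933) and G0S2 (133 against 68.7), an inhibitor of the triglyceride lipase ATGL, complete the 15 highest and were just under 2-fold on this scale. Of the 12 protein-coding genes at least 2-fold higher with #1, si-Control was nearer #1 in 6 and nearer #2 in 6.

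Toward #2 the farthest protein-coding gene was BHLHA15 (MIST1), a transcription factor of secretory cells, with 3.57 RPKM with si-Control, 1.296 with #1 and 7.64 with #2 (log2 -1.91, -3.11 to -2.05). Below it came genes in which #2 was near si-Control and #1 stood apart. CDR2 had 38.1 RPKM with si-Control, 8.94 with #1 and 31.0 with #2 (log2 -1.69, -1.90 to -1.69). DNM2 (dynamin 2, the GTPase that cuts off endocytic vesicles) had 33.4, 10.2 and 33.1 RPKM (log2 -1.61, -1.78 to -1.61). SPNS2, the exporter of sphingosine-1-phosphate, had 2.88, 0.553 and 3.13 RPKM (log2 -1.41, -2.87 to -2.15).

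SDC2, a heparan sulfate proteoglycan, had 14.8, 7.08 and 19.9 RPKM (log2 -1.37, -1.59 to -1.38). CMTM6, which keeps PD-L1 at the cell surface, had 17.1, 7.41 and 19.9 RPKM (log2 -1.31, -1.53 to -1.32). ATP6V1C1, another subunit of the lysosomal proton pump, had 32.4, 11.9 and 29.7 RPKM (log2 -1.25, -1.39 to -1.26). The pump subunits ATP6V0D1 and ATP6V1C1 thus lay on opposite sides, and the list of 30 lysosomal enzymes and V-ATPase subunits had a median of 0.05. C8orf88 (3.10 against 9.30 RPKM), FAM98B (2.24 against 6.62), NUDT17 (1.36 against 4.46), B3GALT6 (8.25 against 20.4), a galactosyltransferase of proteoglycan synthesis, and MIS18A (2.64 against 7.34), which helps load CENP-A at centromeres, were also lower with #1.

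Members of the gene lists described below were also among these genes. CDKN1C (p57), an inhibitor of cyclin-dependent kinases, had 10.2 RPKM with si-Control, 1.67 with #1 and 5.03 with #2 (log2 -1.18, -1.90 to -1.30). CDK6, the kinase partner of D-type cyclins, had 25.9, 8.04 and 18.7 RPKM (log2 -1.12, -1.27 to -1.16). HMOX1 (heme oxygenase 1, an NRF2 target) had 68.2, 16.9 and 37.3 RPKM (log2 -1.10, -1.25 to -1.04). In CDKN1C, CDK6 and HMOX1 both si-RBCK1 libraries were below si-Control and #1 was the lowest. The metallothionein MT1A had 10.3, 8.87 and 21.0 RPKM (log2 -1.16, -1.67 to -0.83), and C4orf48 had 40.6, 34.5 and 76.5 RPKM (log2 -1.13, -1.33 to -0.97). LCN2, SLC6A6, PTPRJ, CARNMT1, LRRN4, MAPKAP1, TNS2, KCP, CCM2L and MGAT2 completed the group, with log2 ratios from -1.12 for LCN2 to -1.005 for MGAT2. Of all 27 protein-coding genes at least 2-fold higher with #2, si-Control was nearer #2 in 22 and nearer #1 in 5.

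**Figure D2:**
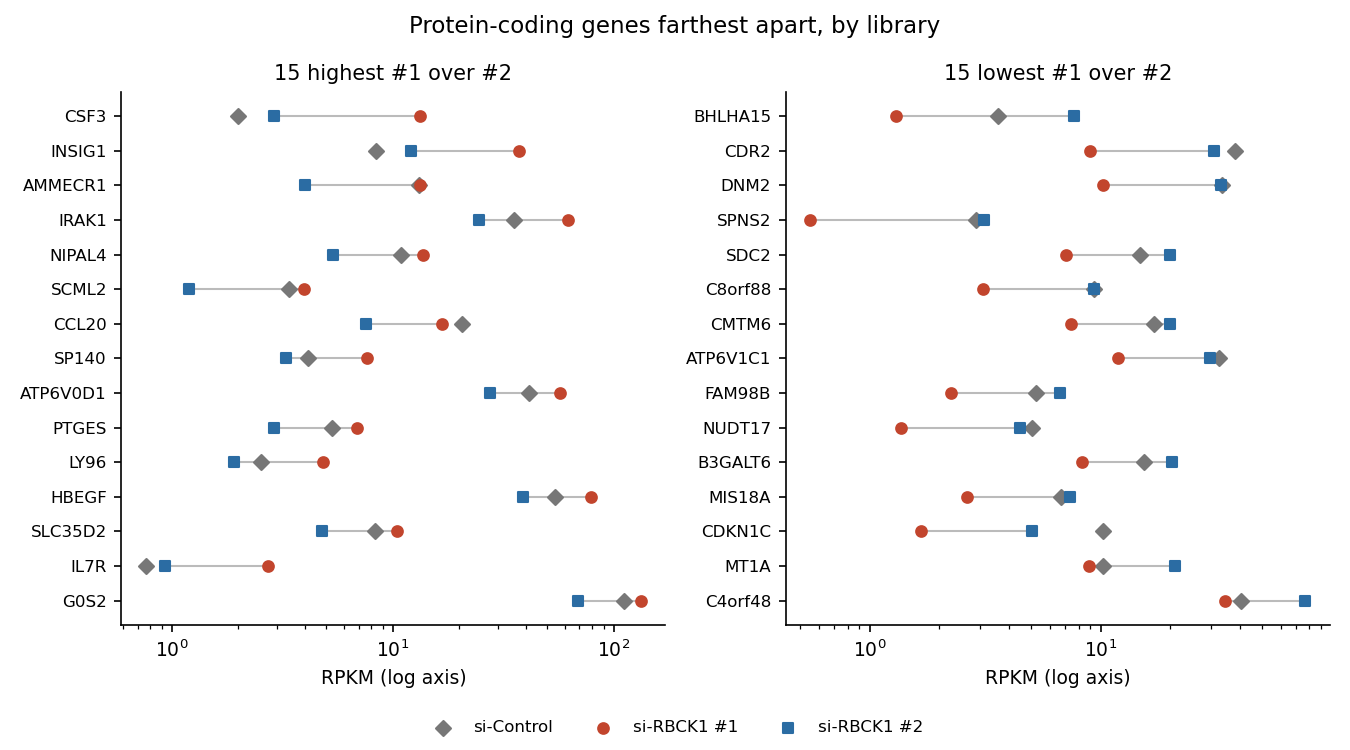
RPKM on a log axis in the 3 libraries (grey diamond si-Control, red circle #1, blue square #2) for the 15 protein-coding genes with the highest and the 15 with the lowest ratio of #1 to #2, with 1 library per point and no error bar. In CDR2, DNM2, SPNS2, C8orf88 and ATP6V1C1 the si-Control and #2 points lie close and #1 is apart.

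Among the other gene types, the largest ratios rested on few reads. The microRNA genes MIR29A, MIR6845, MIR4766 and MIR718 had 22, 14, 17 and 14 reads with #1 and 0 with #2, and SCARNA20, a guide RNA of Cajal bodies, had 25 and 0. Against a floor of 3 reads in the library at 0, this makes them at least 6.59-fold, 4.19-fold, 5.09-fold, 4.19-fold and 7.49-fold higher with #1. In the other direction MIR30C2 had 0 reads with #1 and 15 with #2 (at least 5.56-fold higher with #2), and MIR1205 had 0 and 10 (at least 3.71-fold). MIR5587 had 2 and 20 reads, SNORA71B 1 and 23, and MIR4523 23 and 106. The libraries were made from ribosome-depleted total RNA, so these values need not measure mature microRNA. More reads stood behind the signal recognition particle RNAs RN7SL1, with 58.5 RPKM with si-Control, 84.7 with #1 and 282 with #2 (log2 -1.72, -1.84 to -1.63), and RN7SL2, with 99.99, 130.1 and 294.6 RPKM (log2 -1.17, -1.27 to -1.09). These are near-identical copies among which reads may be split, so their separate values are uncertain.

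Gene groups were described by 45 lists, each by its counts and its median beside the median of all genes, and a list was called shifted when at least 5 members were kept and its median lay 0.25 or more from that of all genes (-0.01). Of the 45, 5 were shifted, 3 toward #1 and 2 toward #2. For the counts below, 5976 of all 12403 genes were higher with #1 and 6424 with #2. No list was tested, and the limit of 0.25 is a size, not a measure of replicate error.

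The list of chemokines of neutrophils and monocytes lay farthest toward #1, with a median of 0.68 over 8 genes and 7 of 8 higher with #1. The 1 member at least 2-fold apart was CCL20, described above as attracting lymphocytes and dendritic cells. CXCL1 had 4187 RPKM with si-Control, 3395 with #1 and 1939 with #2 (log2 0.81, 0.80 to 0.82). CXCL2 had 780, 509 and 266 RPKM (log2 0.93, 0.90 to 0.97), and CXCL5 had 988.5, 881.5 and 547.4 RPKM (log2 0.69, 0.67 to 0.70). All of these, which attract neutrophils through CXCR2, were ordered si-Control, #1, #2 from high to low. CX3CL1 was the member lower with #1, at 2.96 against 4.15 RPKM.

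The NF-kB target genes had a median of 0.37, with 26 of 28 higher with #1 and 1 at least 2-fold. This list holds 7 of the chemokines, and the 21 others had a median of 0.32 with 19 higher with #1. Besides CCL20 and CXCL2, the members farthest from 0 were TRAF1, an adaptor of TNF receptors, with 1.37 RPKM with si-Control, 2.11 with #1 and 0.662 with #2 (log2 0.91, 1.37 to 1.99), and CSF2 (GM-CSF) with 403, 213 and 115 RPKM (log2 0.88, 0.83 to 0.95). Against si-Control, the median of the list was -0.14 with #1 and -0.68 with #2. BCL3 and TNFAIP2 were the 2 members lower with #1 (log2 -0.17 and -0.07). The value of IL6 is among those that do not come out as whole reads, and without such genes the median was again 0.37 (27 genes).

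All 31 proteasome subunits were higher with #1, with a median of 0.27 and a narrow range from 0.03 to 0.52, and none was 2-fold apart. The median was 0.31 with the libraries scaled to equal medians and 0.25 with equal totals. PSMD7, a subunit of the regulatory lid, had 118 RPKM with si-Control, 114 with #1 and 79.3 with #2 (log2 0.52, 0.48 to 0.58). PSMD11, also of the lid, had 45.3, 67.5 and 48.2 RPKM (log2 0.48). The base subunit PSMD1 had 41.8, 68.3 and 53.4 RPKM (log2 0.35), and PSMA6 of the core had 129, 144 and 114 RPKM (log2 0.34). Against si-Control the median of the 31 was 0.49 with #1 and 0.28 with #2. In other lists of high level, 64 of 77 cytosolic ribosomal proteins (median 0.12) and 38 of 58 nuclear-encoded respiratory chain genes (0.07) were higher with #1. So were 9 of 20 glycolysis enzymes (-0.02) and 12 of 29 actin cytoskeleton genes (-0.06).

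**Figure D3:**
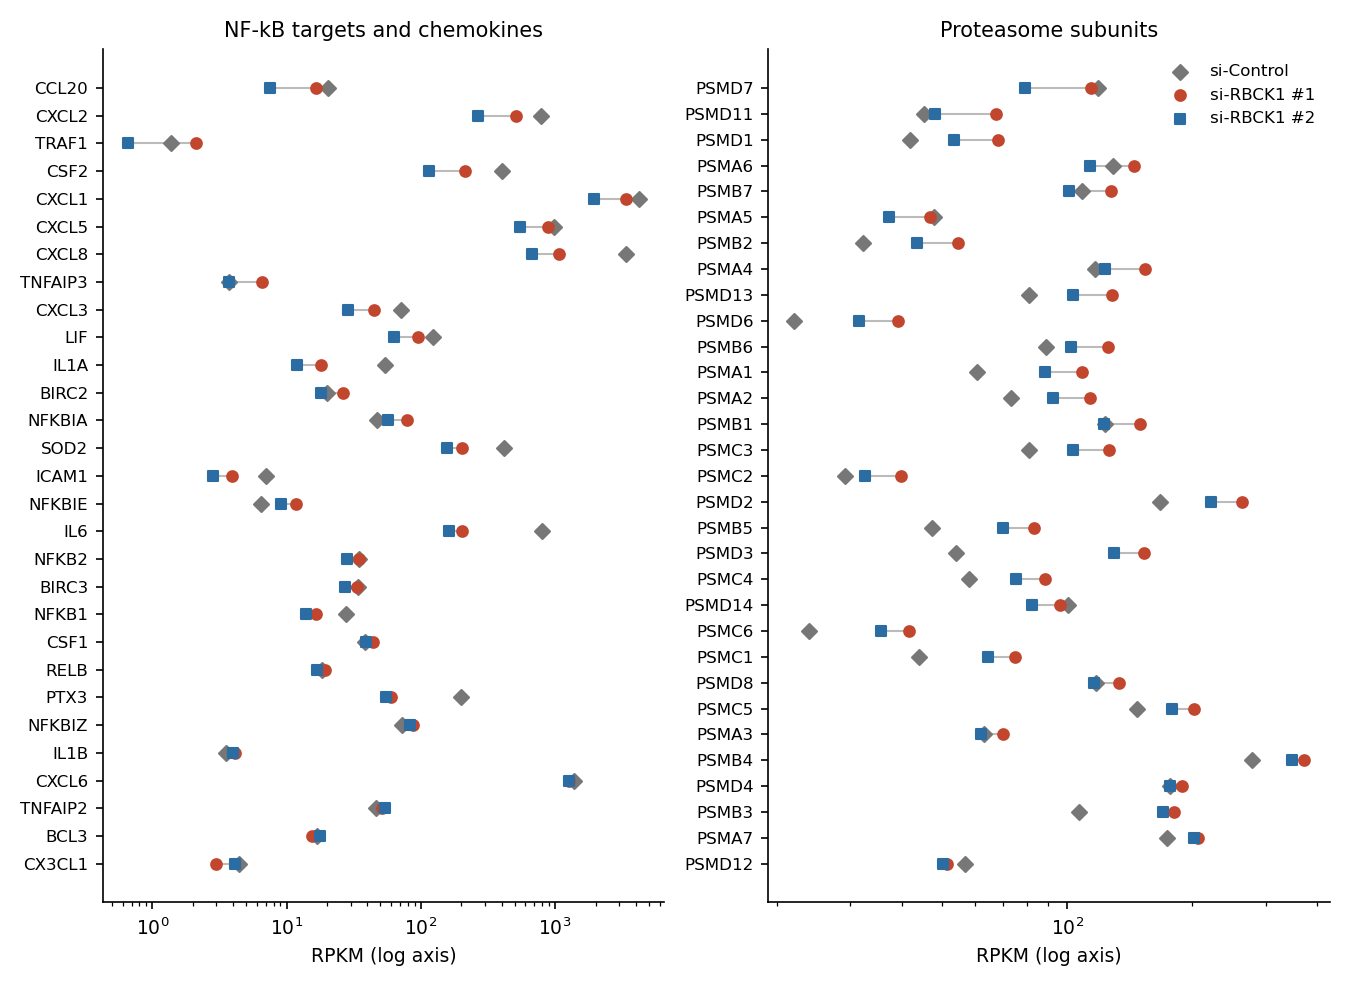
RPKM on a log axis in the 3 libraries for the NF-kB targets and chemokines (left) and the proteasome subunits (right), ordered by the ratio of #1 to #2, with 1 library per point and no error bar. The circle of #1 lies to the right of the square of #2 for all 31 proteasome subunits and for 26 of the 28 NF-kB targets.

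Toward #2 lay the renal lineage transcription factors, with a median of -0.38 over the 6 of 18 that were kept and 1 of 6 higher with #1. PAX8 had 124 RPKM with si-Control, 82.5 with #1 and 107 with #2 (log2 -0.37, -0.41 to -0.34). IRX5 (1.77 against 3.33 RPKM, log2 -0.64) and GATA3 (0.813 against 1.39 RPKM, log2 -0.40) were near the lower limit of level.

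Collagens, laminins and fibronectin had a median of -0.27 over 22 genes, with 6 higher with #1 and none 2-fold apart. The members farthest from 0 were LAMA3 (8.37 RPKM with si-Control, 6.88 with #1 and 11.3 with #2, log2 -0.64), LAMB2 (15.7, 7.72 and 11.9 RPKM, log2 -0.57), LAMA4 (18.5, 12.4 and 17.7 RPKM, log2 -0.47) and COL18A1 (27.2, 23.5 and 32.6 RPKM, log2 -0.46). Both lists lost the shift with 5 RPKM added to each value in place of 1 RPKM, with medians of -0.22 and -0.17.

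The ratio differed with GC content, level and transcript length over all protein-coding genes. These genes were ranked and cut into 4 sets of nearly equal size. The set of highest transcript GC content (2638 genes) had a median log2 ratio of -0.12, against 0.01 to 0.04 in the other sets. By mean level, the medians went from -0.07 in the lowest set to 0.04 in the highest. In the highest set of level, 1598 of 2694 genes were higher with #1. By transcript length, the medians went from 0.03 in the shortest set to -0.06 in the longest. The median GC content was 54.3% for collagens and laminins and 54.5% for the renal factors, against 43.0% for the chemokines, 46.8% for the NF-kB targets, 48.3% for the proteasome and 47.997% for all coding genes matched to a transcript. Other lists of higher GC content than the renal factors were not shifted, but several lay below the median of all genes. They were CDK inhibitors (58.1%, log2 -0.23), tubulins (57.8%, 0.03), MHC class I antigen presentation (57.5%, -0.10) and AP-1 and immediate early genes (55.9%, 0.01). The rest were actin cytoskeleton (55.6%, -0.06), LUBAC subunits and linear-ubiquitin deubiquitinases (55.4%, 0.02), glycolysis enzymes (54.9%, -0.02) and the BCL2 family (54.6%, -0.09). Lists of lower GC content than the chemokines were integrin subunits (42.9%, -0.03), mitosis genes (42.6%, 0.01) and hnRNP and SR splicing factors (42.0%, -0.01). The median level with #1 was 695 RPKM for the chemokines, 44.6 for the NF-kB targets, 114 for the proteasome, 12.8 for collagens and laminins and 2.00 for the renal factors. The median transcript length was 1461.5 bases for the chemokines, 1581 for the proteasome and 2416 for the NF-kB targets. It was 3637.5 bases for the renal factors and 6566.5 for collagens and laminins. Lists of shorter transcripts than the chemokines were not shifted. They were metallothioneins and zinc response (786 bases, log2 -0.06), core histones (869.5, -0.05) and cytosolic ribosomal proteins (1181, 0.12). The others were S100 and annexin genes (1202, 0.12) and the nuclear-encoded respiratory chain (1259.5, 0.07). RNA interference genes had longer transcripts than collagens and laminins (7777, 0.04). The part of GC content, level and transcript length in the list medians was not tested.

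The remaining 40 lists were not shifted on this measure. Closest to the limit were YAP-TEAD target genes (0.23, 12 of 19 higher with #1), cholesterol synthesis and LDL uptake (0.21, 19 of 23), direct p53 target genes (0.19, 23 of 38) and CDK inhibitors (-0.23, 1 of 5). Some values in the last 2 lists, such as CDKN1A, do not come out as whole reads or do not average to the authors' listed mean. Without such genes the medians were 0.20 (33 p53 targets) and -0.24 (4 CDK inhibitors, too few to be called shifted). With 0.1 RPKM added the YAP-TEAD list passed the limit (0.24), and the cholesterol list (0.26) and the CDK inhibitors (-0.33) did when members were averaged. INSIG1 was the member of the cholesterol list at least 2-fold apart. Interferon-induced genes (-0.04), DNA replication genes (0.04), mitosis genes (0.01) and alpha and beta tubulins (0.03) had medians near that of all genes. The tubulins and replication genes stood apart from si-Control by similar medians with each siRNA, at 1.44 with #1 and 1.34 with #2 for tubulins and 0.79 and 0.69 for replication genes. These values share the si-Control library.

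Next, genes were grouped by whether the 3′ UTR of the longest coding transcript held the 7-base match to a seed, ATCAACA for #1 and GATTTCT for #2, read on the transcript strand. A transcript was found for 10549 of 10775 coding genes (97.9%), and the word of #1 was in 8.36% and that of #2 in 16.6% of all 19046 3′ UTRs in the annotation. Genes with a match to neither siRNA had a median log2 ratio of -0.01 (7923 genes). The median was 0.00 with a match to #1 only (607 genes), 0.00 with a match to #2 only (1675 genes) and 0.00 with both (344 genes). Genes with 2 or more sites for #1 only had a median of 0.04 (48 genes) and those with 2 or more for #2 only -0.02 (332 genes). In coding sequence, genes with the words of both siRNAs had a median of -0.09 (315 genes), against 0.00 with neither (7982 genes). The medians of the 3′ UTR groups with a match to 1 siRNA differed from that of genes with neither by 0.016 for #1 and 0.0081 for #2, against an SD of 0.27 over protein-coding genes.

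**Figure D4:**
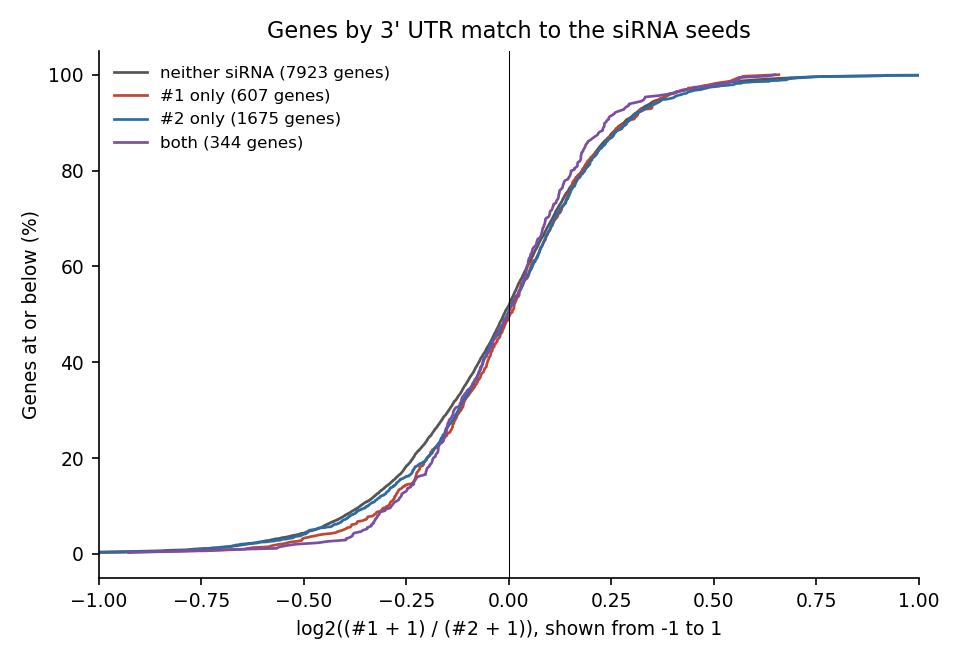
Cumulative percent of genes by log2 ratio of #1 to #2, for genes whose 3′ UTR matches the seed of neither siRNA, of #1 only, of #2 only or of both. The 4 curves run close together, with medians of -0.01, 0.00, 0.00 and 0.00.

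Of the 27 protein-coding genes at least 2-fold lower with #1, 1 had a 3′ UTR match to #1 (3.70%, against 9.02% of all genes matched to a transcript). Of the 12 at least 2-fold lower with #2, 2 had a match to #2 (16.7%, against 19.1%). The 3 sites are printed with the seed match in capitals, in the 3′ UTRs of TNS2 (GRCh38 chr12:53063898-53063916), INSIG1 (chr7:155309410-155309428) and NIPAL4 (chr5:157474590-157474608).

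TNS2, word of #1: tcagagcccacATCAACAc

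INSIG1, word of #2: aactcggcaatGATTTCTt

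NIPAL4, word of #2: tgatgaatgtgGATTTCTg

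TNS2, an adaptor of focal adhesions, had 4.21 RPKM with si-Control, 2.30 with #1 and 5.83 with #2 (log2 -1.05). In INSIG1 the level with #2 was above si-Control, as given above. Over the whole transcript, 2 of the 27 genes lower with #1 held the word of #1 (7.41%, against 23.8% of all matched genes). These were TNS2 and DNM2, and DNM2 held 4 copies in its coding sequence. Of the 12 genes lower with #2, 3 held the word of #2 in the whole transcript, beside 29.3% of all matched genes.

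The genes richest in sites were also close between the siRNAs, but all except TMEM8B also held sites for the other siRNA. RPAP2 held 6 sites for #1 and had 4.70 RPKM with #1 and 3.80 with #2 (log2 0.25). BCAT1, a branched-chain aminotransferase, held 4 and had 17.7 and 13.9 RPKM (log2 0.33). NCKAP1, EXT1, SUGT1 and ANKRD17 held 3 each and had log2 ratios of -0.06, 0.01, 0.12 and 0.05. For #2, CBX5, CNKSR3, ZBTB20, FLRT2 and TMEM8B held 6 sites each with log2 ratios of 0.13, -0.19, -0.10, 0.26 and 0.18, and NCKAP1 held 5.

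No kept transcript other than RBCK1 matched a 19-base target sequence with fewer than 3 mismatches. The closest sites are shown with matching bases in capitals and mismatches in lower case, from coding sequence in GTPBP4 (chr10:997289-997307) and TRAF7 (chr16:2172341-2172359) and from the 3′ UTR of FSD1L (chr9:105551603-105551621).

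GTPBP4, for #1: aGTcCAgCTTCATCAACAA

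TRAF7, for #1: GGTGCcCCTTCAcCAtCAA

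FSD1L, for #2: GtATcACCAGtGATTTCTA

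GTPBP4, a nucleolar GTPase of ribosome assembly, had 89.8 RPKM with si-Control, 101 with #1 and 88.5 with #2 (log2 0.19). TRAF7, a ubiquitin ligase, had 26.9, 30.3 and 15.7 RPKM (log2 0.91, 0.88 to 1.03) and so was lower with #2, to which this site does not belong. FSD1L had 1.83, 0.899 and 0.989 RPKM (log2 -0.07). Further sites with 3 mismatches to #1 were in ELAVL1 and DSE, with log2 ratios of -0.02 and 0.17. The next sites for #2 had 4 mismatches, in LITAF, NDUFB5, ZC3H11A and PRKCA, with log2 ratios of 0.03, 0.20, -0.10 and -0.28. None of these genes was 2-fold apart.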

How the data were processed

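The authors deposited 1 table of RPKM values per gene for 3 libraries. The submitters' processing notes name FastQC, Trimmomatic, TopHat2, HTSeq and hg19; further settings are not given in the sources used here. Columns of the authors' own comparison (fold change, p and q values) were not used. With 1 library per condition no test was run, and fold size and counting intervals were used instead. Library totals were recovered from the RPKM steps of RNAs of at most 200 bases. Of the 12403 genes kept, 12387 (99.9%) then gave whole reads in all 3 libraries within rounding, 16 did not, and in 12 the libraries did not average to the authors' listed mean (19 genes in all, among them IL6 and CDKN1A). For each gene the smallest read numbers that give all 3 listed values were taken, so true reads can be a multiple and intervals narrower. The entry of EGR1 under si-Control is not a number, and that gene was left out.

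The gene lists, markers and naming rule were chosen with earlier results of these data known. Named were RBCK1, the 15 highest and 15 lowest protein-coding genes of whole reads, 5 and 5 of other types, list members 2-fold apart, the 4 members farthest from 0 of shifted lists, the 6 genes with most seed sites and the 5 nearest matches per siRNA, and the 5 of highest level among those 2-fold apart. Some genes this rule names are not reported here. Other members of a list are named where a count leaves them out. siRNA sequences came from the study's oligo list, and transcripts from GENCODE 29 (GRCh38). Calculations used Python 3.11.15, pandas 2.3.3, NumPy 2.4.6 and SciPy 1.17.1, and were tested on simulated data. Alternatives covered the added RPKM, the level filter, library scaling, the fold limit and the seed match. After the seed comparison, a search over all 3′ UTR words was added.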

Additional observations from a re-analysis of the deposited data

How the results depend on the processing

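No paired analysis was possible because the 3 conditions share only replicate number 1. The count of genes at least 2-fold apart, 171, depended on how low levels were treated. It was 394 with 0.1 RPKM added and 25 with 5 RPKM added, 299 with no filter on low values, 47 over genes averaging 5 RPKM or more, 39 over protein-coding genes alone, 766 at a 1.5-fold limit and 17 at a 4-fold limit, and 101 where the whole counting interval had to lie past 2-fold (33 higher with #1 and 68 with #2). It stayed between 169 and 199 with the libraries scaled to equal medians or equal totals, over rows of whole reads, and with the filter on the 2 si-RBCK1 libraries.

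Shifted lists numbered 3 with 5 RPKM added and 3 over genes averaging 5 RPKM or more, and 5 or 6 under the other alternatives. Chemokines, NF-kB targets and the proteasome were shifted under every alternative run. Collagens and laminins were not with 5 RPKM added (-0.17), over genes averaging 5 RPKM or more (-0.091, 17 genes) or by the mean in place of the median (-0.20), and the renal factors were not with 5 RPKM added (-0.22) and had too few members at 5 RPKM. Of the 42 genes named for the size of their ratio or for their level among genes 2-fold apart, 39 were at least 2-fold apart. That count follows from the choice, and it includes noncoding genes. With 5 RPKM added, 19 of the 42 were. RBCK1 stayed within its counting interval throughout. The difference between genes with a seed match to 1 siRNA and genes with none lay between -0.02 and 0.04 in all 16 alternative values, 4 of which were added after seeing the data. With 1 library each, no value has a replicate error.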

Other observations

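After the comparison by the words of the listed siRNAs, every 3′ UTR word of 7 or 8 bases was ranked. A word had to be held by at least 30 coding genes of mean 3 RPKM or more. The score was the mean log2 ratio of its genes times the square root of their number, so words held by many genes weighed more. Ratios were first centered on their median or adjusted, and extreme values were limited. There were 9 rankings: #1 to #2, #1 to si-Control and #2 to si-Control, each by 7 bases, by 8 bases, and by 7 bases after adjustment. The adjustment was a least-squares fit on GC content of the 3′ UTR and of the transcript, each with its square. It also held the log2 of 3′ UTR length and of level. The search was made on the values it describes, so the word it returned is a description with no test. Of 16251 words of 7 bases, CTCTCAA ranked lowest for #1 to #2, with and without the adjustment, and TCATCAA ranked highest. With the adjustment CTCTCAA also ranked lowest for #1 to si-Control, but 6900 for #2 to si-Control. Without the adjustment these ranks of CTCTCAA were 439 and 5280. The words ATCAACA and GATTTCT of the listed siRNAs ranked 12034 and 10218 for #1 to #2 and, with the adjustment, 6143 and 4854.

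CTCTCAA was chosen for low ratios of #1 to #2, so the medians and shares of that ratio below follow from the choice. They are no support for the word. Among all coding genes compared that have a transcript, the 1283 with CTCTCAA in the 3′ UTR had a median log2 ratio of #1 to #2 of -0.07 (61.5% higher with #2), against 0.00 in the 9266 without it (50.01%). The medians against si-Control were -0.11 with #1 and -0.02 with #2 for genes with the word, and 0.05 and 0.06 for genes without it. In 4 sets of genes from the lowest to the highest GC content, the medians with the word were -0.04, -0.06, -0.11 and -0.21, and those without it 0.03, 0.06, 0.03 and -0.12. Genes with 2 or more copies had the same median as genes with 1 (-0.07). Of the 27 protein-coding genes at least 2-fold higher with #2, 8 hold the word (29.6%), against 1 of the 12 higher with #1 (8.33%) and 12.2% of all 10549: SDC2, C8orf88, ATP6V1C1, FAM98B, MIS18A, CDK6, SLC6A6 and PTPRJ. CTCTCAA is in neither listed target sequence on either strand. TCATCAA, the word at the other end of the ranking, where genes were higher with #1, lies in the listed target of #1, at bases 10 to 16. It is not the seed match ATCAACA, and how common it is was not counted. CTCTCAA occurs once in RBCK1, in coding sequence at transcript bases 953 to 959 (GRCh38 chr20:417606-417612). CTCTCAA is in 11.005% of all 3′ UTRs and in 20.4% of all coding transcripts. What sets these genes apart was not tested.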
